A study of Homo sapiens with 32 samples.

Results

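Gene expression after 4 days of tamoxifen was measured in 4 xenograft tumors of ZR-75-1, an estrogen receptor (ER) positive line derived from a human breast cancer. They were chosen by the day in the sample labels, and 7 arrays of the 32 in the series were used for them (4 tumors of 16, 3 mice of 12). The treated group was female nu/nu mice given 17β-estradiol (E2) and a pellet with 2.5 mg of tamoxifen released over 60 days, for 4 days. The group it was set against was one RNA pool of E2-only xenografts taken on days 0, 1, 2 and 4, which was hybridized on every array. All mice therefore carried E2, and the control tumors were not measured singly. The tumors came from passaged fragments of a single cell line, and nude mice lack mature T cells but supply the stroma and blood vessels of a graft. The tumors are named by the labels' replicate numbers 1, 2, 3 and 5. Replicates 1 and 2 came from opposite flanks of 1 mouse, and replicates 3 and 5 from 2 others.

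Estrogen bound to ER switches on genes for growth factors, their binding proteins, secreted proteins and cell cycle regulators in breast epithelium, and it holds others down. Tamoxifen competes with E2 for the receptor and in breast cells mostly acts as an antagonist. Genes such as TFF1 and TFF3, which encode small secreted trefoil proteins of mucosal surfaces, are widely used as readouts of ER activity.

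Each value below is a log2 ratio of tamoxifen-treated tumor over E2-only pool, after loess and quantile normalization in limma, with the forward and dye-swap arrays of a tumor averaged. A value of 0 means equality with the pool, and levels of different genes cannot be compared on this scale. The scanner files do not name the dyes of their channels, so the sign follows the authors' value table. Reading the channels by the numbers in the sample labels would reverse every sign, but the stains of TFF3 (less protein) and IGFBP5 (more protein) in the study run in the direction used. A probe was called where its adjusted p was below 0.05 in a limma fit with 1 mean per day over all 16 tumors and the mouse as a random block. The correlation between tumors of 1 mouse was estimated at 0.02, so the block treated them as nearly independent. Over all probes, the ratios of replicates 1 and 2 correlated at 0.24, and those of the other pairs at 0.08 to 0.20. Only 1 pool was made, and its spread enters no test against it. An exact sign-flip test over 4 tumors could not reach 0.05 for a single gene.

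Several arrays limited the data. Replicate 3 was measured on a forward array only, because the array labelled as a dye swap of the same tumor (numbered replicate 4) had raw log ratios that followed the forward array of replicate 2 (r = 0.980 across probes, against 0.614 with the forward array of replicate 3) and was left out. The ratios of replicate 3 thus carry any effect of the dye. Over all 9912 probes, the forward and dye-swap ratios of one tumor correlated at only -0.07 for replicate 1, 0.15 for replicate 2 and 0.06 for replicate 5, whereas forward arrays of different tumors correlated at 0.28 to 0.37. Over the 333 probes with a gene name the orientations of a tumor correlated at 0.66, 0.70 and 0.62. These are correlations across probes, which share an array and are not independent replicates. The names come from the list the study made from these same arrays for change over time. They cover 253 gene symbols, and their large ratios are therefore not independent evidence. On the plot of both orientations the called probes lay near the diagonal, while those of small ratio spread around 0. Calls were made on the mean of both orientations, so part of this agreement was built in. With dye-swap arrays only, which leaves out replicate 3, 24 of 28 called genes examined lost their call.

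**Figure D1:**
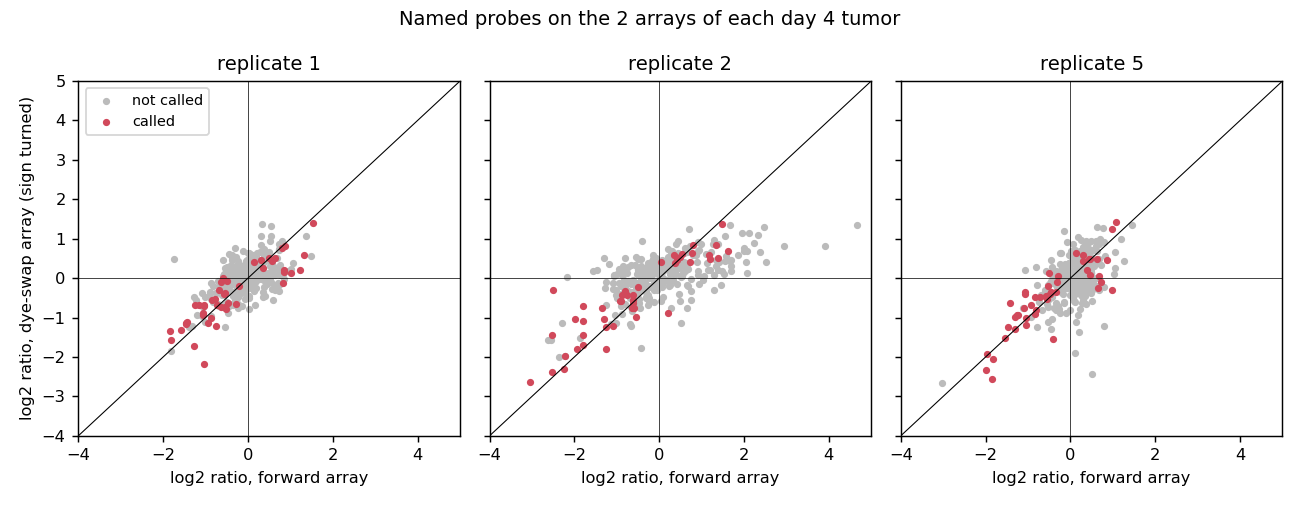
Log2 ratio of the 333 named probes on the forward array (x axis) and on the dye-swap array with its sign turned (y axis) for the 3 day 4 tumors with both, with called probes in red and the diagonal drawn. The correlations across probes were 0.66, 0.70 and 0.62 for replicates 1, 2 and 5, and the forward array of replicate 2 reached 4.67 (SCD).

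The question of the main comparison was which genes had changed after 4 days of tamoxifen. Falls outnumbered rises, and 11 of the 24 genes called lower were on a list of estrogen-induced genes. That list was written with earlier results of these data known. Among its 11 called genes were the trefoil factors TFF1 and TFF3, the binding proteins IGFBP4 and SERPINA6, and the scaffold PDZK1. The genes named here were 2.00 to 3.52 times lower in the treated tumors. The rises included the stress response gene IER3 (2.11-fold) and the chaperone CLU (1.58-fold). In all, 102 of 9912 probes were called (1.03%), 68 lower (0.686%) and 34 higher (0.343%). Each lay on the same side of 0 in all 4 tumors, as did 1778 of all probes (17.9%). Calls rest on the mean of these tumors, so part of this agreement was built in. Of the called probes 47 carried a gene name, 32 lower (24 symbols) and 15 higher (14 symbols), and 55 did not. Over the named genes, by the brightest probe of each, 24 of 253 were lower and 12 of 253 higher. A mean change of at least 1.5-fold was seen for 57 probes lower and 30 higher, of which 35 and 14 were named. The median SD between tumors was 0.23 over all probes and 0.30 over named probes.

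These calls leaned on replicate 2, which lay farthest from 0 in 24 of the 47 called named probes. Over all probes the interquartile range was 0.44 in replicate 2, against 0.22, 0.45 and 0.33 in replicates 1, 3 and 5. How often replicate 2 lay farthest out over all probes was not counted. Over the called lower named probes its median was -1.17, against -0.86, -0.72 and -0.84 in replicates 1, 3 and 5. Without replicate 2, 13 probes were lower and 2 higher, and 11 of the 47 kept their call. Without the mouse of replicates 1 and 2, 14 were lower and 1 higher, and 7 of the 47 kept it. With 1 mean per mouse, 22 were lower and 3 higher, and 13 of the 47 kept it. With the doubtful array used as labelled, 0 probes were called in either direction (454 at an unadjusted p under 0.05). Without replicate 3, 58 were lower and 30 higher, and 38 of the 47 kept their call. Without replicate 5, 36 were lower and 37 higher. Tumors of other days entered through the shared spread: 38 were lower and 17 higher without day 1 replicate 2, 42 and 22 without day 1 replicate 3, and 44 were lower when either tumor of day 14 was left out.

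**Figure D2:**
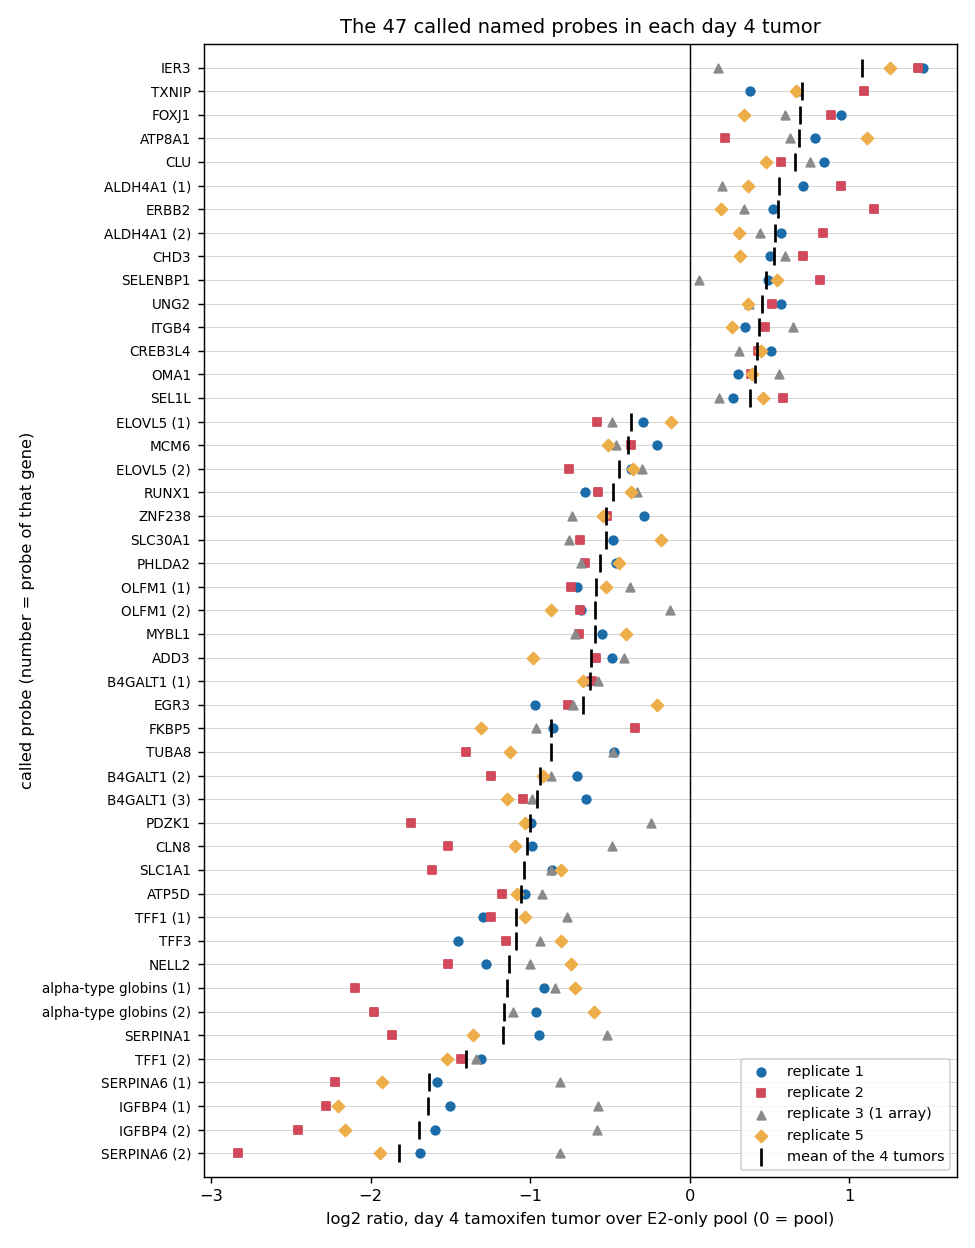
Log2 ratio over the E2-only pool (x axis) of the 47 called named probes (rows; a number tells probes of one gene apart) in each day 4 tumor, with the mean as a bar. All 4 tumors lie on one side of 0 in every row, and in 24 rows replicate 2 lies farthest out.

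The 6 genes that kept a call both without replicate 2 and without its mouse were TFF1, B4GALT1, ATP5D, SLC1A1, FKBP5 and ZNF238, all lower. TFF1 (chr21:42362282-42366535, GRCh38.p14) had ratios of -1.31, -1.43, -1.34 and -1.52 in replicates 1, 2, 3 and 5 with the dimmer of its 2 probes, so that its mean of -1.40 ± 0.10 (SD, n = 4) was a 2.64-fold fall (adjusted p = 0.000143). The brighter TFF1 probe gave -1.30, -1.25, -0.77 and -1.04 (mean -1.09 ± 0.24, adjusted p = 0.0122) and was saturated on 2 arrays. Both probes were low in every tumor, and it was the dimmer one that kept its call in both settings. With dye-swap arrays only the brighter probe stood at -0.98 and lost its call (adjusted p = 0.112).

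B4GALT1, a Golgi galactosyltransferase (chr9:33104077-33185089), had the smallest SD among the called named probes. Its brightest probe stood at -0.64, -0.61, -0.58 and -0.67 (mean -0.62 ± 0.04, SD, n = 4; adjusted p = 0.00112). The other 2 probes of the gene were called as well, with means of -0.94 ± 0.23 and -0.96 ± 0.22. The gene was thus lower with each of its 3 probes, in all 4 tumors. Without the mouse of replicates 1 and 2 these other probes kept their call, whereas the brightest stood at -0.62 and lost it (adjusted p = 0.0567). The brightest also lost it with dye-swap arrays only (adjusted p = 0.0546) and with day 4 tumors only (adjusted p = 0.0788).

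ATP5D, the delta subunit of the mitochondrial ATP synthase, gave -1.03, -1.18, -0.93 and -1.09 (2.08-fold lower, adjusted p = 0.000244). SLC1A1, a glutamate transporter, gave -0.86, -1.62, -0.87 and -0.81 (2.06-fold lower, adjusted p = 0.000315), with replicate 2 below 3 tumors that lay close together. FKBP5, a co-chaperone of steroid receptors, gave -0.86, -0.34, -0.96 and -1.31 (1.83-fold lower, adjusted p = 0.00846), and here replicate 2 was the least changed. ZNF238, a transcriptional repressor, gave -0.29, -0.52, -0.74 and -0.54 (1.44-fold lower, adjusted p = 0.00811). With dye-swap arrays only SLC1A1 and FKBP5 (adjusted p = 0.111 for each) and ZNF238 (adjusted p = 0.275) lost their call, and ATP5D kept it. With day 4 tumors only FKBP5 (adjusted p = 0.101) and ZNF238 (adjusted p = 0.202) lost theirs.

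From general knowledge, and with earlier results of these data known, 40 estrogen-induced genes were listed. Of these, 27 had a named probe, and each was counted by its brightest. Listed genes are said to be measured below where they have a named probe, and the others may lie among the 9579 unnamed probes. All 27 had a mean below 0, 11 were called lower and 0 higher, and the median was -0.59, against a median of 0.00 over all 9912 probes, of which 0.686% were called lower. Among the 253 named genes, each by its brightest probe, 24 were called lower. The list's median was -0.68, -0.72, -0.26 and -0.40 in replicates 1, 2, 3 and 5. Without replicate 2 its median was -0.53 with 2 calls, and without the mouse of replicates 1 and 2 it was -0.47 with 0 calls, although dimmer probes of TFF1 and B4GALT1 were still called there. The list overlaps the genes that the study selected on these arrays, so its direction is not independent evidence.

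Among secreted and binding proteins of that list, IGFBP4 (chr17:40443450-40457725), which binds insulin-like growth factors, had ratios of -1.5, -2.28, -0.57 and -2.21. Its mean of -1.64 ± 0.79 (SD, n = 4) was a 3.11-fold fall (adjusted p = 0.027), and its second probe fell 3.24-fold. Replicate 3 lay well above the other 3 tumors with both probes. SERPINA6 (chr14:94304248-94323336), the corticosteroid-binding globulin, had ratios of -1.59, -2.23, -0.81 and -1.93 (mean -1.64 ± 0.61, 3.11-fold lower, adjusted p = 0.00898). SERPINA1, the protease inhibitor alpha-1 antitrypsin, gave -0.95, -1.87, -0.52 and -1.36 (2.25-fold lower, adjusted p = 0.0267). Replicate 3 was nearest to 0 and replicate 2 farthest in all 3 genes. Without replicate 2 the means were -1.43, -1.44 and -0.94, with adjusted p of 0.159, 0.0832 and 0.16. SERPINA4, a related inhibitor, had -0.40, -1.14, -0.12 and -1.02 and was not called (adjusted p = 0.102).

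TFF3 (chr21:42311667-42315409), the neighbouring trefoil gene, had ratios of -1.45, -1.15, -0.94 and -0.81 (mean -1.09 ± 0.28, 2.12-fold lower, adjusted p = 0.00145). NELL2, a secreted protein with EGF-like repeats, gave -1.28, -1.51, -1.0 and -0.75 (2.19-fold lower, adjusted p = 0.00811). PDZK1, a scaffold for membrane transporters, gave -0.99, -1.75, -0.25 and -1.03 (adjusted p = 0.0486), and without replicate 2 it stood at -0.76 (adjusted p = 0.235). The transcription factors EGR3 and MYBL1 were called too. EGR3 gave -0.97, -0.77, -0.73 and -0.21, and MYBL1 gave -0.55, -0.69, -0.72 and -0.40. OLFM1, an olfactomedin-domain glycoprotein, was lower with 2 of its 5 probes, with means of -0.59 each. Members that did not pass the test included AREG, an EGF-receptor ligand (-0.64, -0.31, -0.10 and -0.94), and GFRA1, a co-receptor for GDNF (-1.07, -0.93, -0.20 and -0.74, adjusted p = 0.0982). MYB gave -0.56, -0.72, 0.08 and -0.10, lower in replicates 1 and 2, which share a mouse, than in the others.

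The RefSeq promoter windows of the falling genes, from 250 bases before to 50 after the start on GRCh38.p14, were examined for the letters of the estrogen response element, the DNA element that ER binds. Of 24 lower symbols, 15 had a window. The full palindrome, GGTCA and TGACC with any 3 bases between them, occurred in 0 of the 15, and in 0.0659% of all 27305 windows. Its half-site GGTCA, which the palindrome holds on each strand, occurred on either strand in 8 of 15 (53.3%), against 37.7% of all windows. Of 14 higher symbols, 8 had a window and 4 of these held the half-site (50%). The windows of 6 lower genes are printed 5′ to 3′ to show promoters with and without these letters, with the half-site in capitals. They are PDZK1 (chr1:145707351-145707650, minus strand), SERPINA1 (chr14:94390586-94390885, minus strand), FKBP5 (chr6:35728534-35728833, minus strand), MCM6 (chr2:135876394-135876693, minus strand), SERPINA6 (chr14:94323287-94323586, minus strand) and IGFBP4 (chr17:40443200-40443499, plus strand).
PDZK1: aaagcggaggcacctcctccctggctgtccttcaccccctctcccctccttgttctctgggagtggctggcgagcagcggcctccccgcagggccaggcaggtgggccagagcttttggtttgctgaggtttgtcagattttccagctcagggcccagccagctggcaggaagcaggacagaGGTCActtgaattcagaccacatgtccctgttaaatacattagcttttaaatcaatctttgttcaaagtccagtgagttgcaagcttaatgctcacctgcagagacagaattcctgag
SERPINA1: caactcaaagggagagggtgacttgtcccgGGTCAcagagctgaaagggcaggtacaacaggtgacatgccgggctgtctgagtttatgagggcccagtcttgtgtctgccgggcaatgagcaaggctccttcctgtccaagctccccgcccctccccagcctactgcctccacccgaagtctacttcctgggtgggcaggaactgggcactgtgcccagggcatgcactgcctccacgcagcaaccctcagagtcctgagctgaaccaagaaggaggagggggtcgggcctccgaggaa
FKBP5: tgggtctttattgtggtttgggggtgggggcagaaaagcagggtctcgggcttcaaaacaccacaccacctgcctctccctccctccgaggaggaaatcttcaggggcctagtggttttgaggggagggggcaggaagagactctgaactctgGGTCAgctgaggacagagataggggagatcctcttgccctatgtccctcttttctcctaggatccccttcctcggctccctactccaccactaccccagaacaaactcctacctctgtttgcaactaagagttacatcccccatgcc
MCM6: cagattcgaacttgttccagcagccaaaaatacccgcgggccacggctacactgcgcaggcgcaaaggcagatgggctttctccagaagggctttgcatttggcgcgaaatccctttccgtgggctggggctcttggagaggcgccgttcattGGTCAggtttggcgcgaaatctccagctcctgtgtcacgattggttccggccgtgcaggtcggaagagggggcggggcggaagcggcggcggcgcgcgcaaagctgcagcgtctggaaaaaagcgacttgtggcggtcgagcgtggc
SERPINA6: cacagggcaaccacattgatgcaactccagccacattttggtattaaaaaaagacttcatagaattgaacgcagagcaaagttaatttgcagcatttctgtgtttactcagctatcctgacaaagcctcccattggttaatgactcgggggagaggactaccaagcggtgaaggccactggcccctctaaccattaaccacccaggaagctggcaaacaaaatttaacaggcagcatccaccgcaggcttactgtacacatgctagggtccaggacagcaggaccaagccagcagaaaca
IGFBP4: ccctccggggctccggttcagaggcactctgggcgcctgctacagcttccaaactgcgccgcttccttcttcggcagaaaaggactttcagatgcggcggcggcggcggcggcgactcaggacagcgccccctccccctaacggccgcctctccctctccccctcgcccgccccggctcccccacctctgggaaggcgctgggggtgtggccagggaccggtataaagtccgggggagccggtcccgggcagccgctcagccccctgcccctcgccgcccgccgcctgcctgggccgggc
The first 4 held a single half-site each, and SERPINA6 and IGFBP4, the genes with the largest called falls, held none. A match describes letters and is no binding site. No window was used for TFF1, TFF3 or NELL2.

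The remaining lower genes had varied roles. FKBP5 and RUNX1, a transcription factor (-0.66, -0.57, -0.33 and -0.37), belonged to set 2 of the study's 6 probe sets, as did TUBA8, an alpha tubulin (-0.48, -1.40, -0.48 and -1.13). ELOVL5, an elongase of polyunsaturated fatty acids, was lower with 2 probes (means -0.37 and -0.45). With dye-swap arrays only its brightest probe stood at -0.15 (adjusted p = 0.708). MCM6, a subunit of the replicative helicase, gave -0.21, -0.37, -0.46 and -0.51 (1.31-fold lower, adjusted p = 0.0486), whereas MCM2 of the same helicase gave -0.07, -0.50, -0.12 and -0.27 and was not called. CLN8, a protein of the endoplasmic reticulum, gave -0.99, -1.52, -0.49 and -1.10. Outside the rule for naming genes, and named only to complete the calls, were the cytoskeletal adducin ADD3 (mean -0.62), the imprinted gene PHLDA2 (-0.56) and the zinc exporter SLC30A1 (-0.53). MYBL1, OLFM1 and ZNF238 were named on the same ground.

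ALB, which encodes albumin, had the lowest mean of any probe, at -2.20 ± 1.09 (SD, n = 4), but was not called (adjusted p = 0.0684). Its ratios were -0.70, -2.10, -3.16 and -2.83. Replicate 1 lay far above the others, and both orientations of replicates 1, 2 and 5 had the same sign. Of 16 liver-type secreted proteins, 5 were measured and 2 were called lower (SERPINA1 and SERPINA6), with a median of -1.17. Of all probes 0.686% were called lower, and of the 253 named genes 24. Without replicate 2, without its mouse and with 1 mean per mouse, 0 of the 5 were called. The set of 4 probes annotated jointly to the alpha-type globins HBZ, HBA1, HBA2 and HBQ1 had 2 calls, both lower. The first gave -0.96, -1.98, -1.11 and -0.60 (2.23-fold lower, adjusted p = 0.0486) and the second gave -0.91, -2.10, -0.84 and -0.72. HBG1, a gamma globin, gave -1.07, -2.18, -0.50 and -0.67 (adjusted p = 0.0638). All of these were lowest in replicate 2. MB, the muscle oxygen carrier myoglobin, gave 0.36, 0.17, 0.25 and 0.46 (adjusted p = 0.101). HBG1 was the only one of 8 erythroid markers with a named probe of its own. In bulk tumors, fewer cells of a type and less RNA per cell cannot be told apart, and the part of blood content in these ratios was not tested.

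Among the rises, IER3 (chr6:30743199-30744547), an immediate early gene that regulates survival, had ratios of 1.46, 1.43, 0.17 and 1.25 (mean 1.08 ± 0.61, SD, n = 4; adjusted p = 0.00898). Replicate 3 stood apart from the other 3 tumors, and without replicate 2 the mean was 0.96 (adjusted p = 0.0762). The other of its 2 probes was not called. CLU, the secreted chaperone clusterin, gave 0.84, 0.57, 0.75 and 0.48 (adjusted p = 0.00112). It was high in every tumor and kept its call without replicate 2 (0.69, adjusted p = 0.00529) and with 1 mean per mouse. It lost the call without the mouse of replicates 1 and 2 (0.61, adjusted p = 0.0614), with day 4 tumors only (adjusted p = 0.0886) and with dye-swap arrays only (0.56, adjusted p = 0.111). TXNIP, an inhibitor of thioredoxin, was called with 1 of its 4 probes (0.38, 1.09, 0.68 and 0.67), while its brightest probe gave 0.20, 0.70, 0.28 and 0.77 and missed the threshold (adjusted p = 0.0503).

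ERBB2 (chr17:39688094-39728658), the receptor HER2, had ratios of 0.52, 1.16, 0.34 and 0.20 (1.46-fold higher, adjusted p = 0.0486), highest in replicate 2 and lost without it (0.35, adjusted p = 0.215). With dye-swap arrays only it stood at 0.19 (adjusted p = 0.719). By the brightest probe ERBB2 was the only call among 9 measured of 13 estrogen-repressed genes, whose median was 0.42, with 8 of the 9 above 0. Of all probes 0.343% were called higher, and of the 253 named genes 12. The list held IGFBP5, another binding protein for insulin-like growth factors. IGFBP5 was high in all 4 tumors (0.74, 0.92, 0.94 and 1.08, mean 0.92 ± 0.14) yet was not called (adjusted p = 0.192), in a fit that pools the spread over days, and its SD was 1.36 over the 4 tumors of day 7. CLDN4, a tight junction protein, gave 0.28, 0.70, 0.84 and 0.11 (adjusted p = 0.0677).

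Other rises were FOXJ1, the master transcription factor of motile cilia, called with 1 of 2 probes (0.95, 0.88, 0.59 and 0.34, adjusted p = 0.0302). Its brighter probe gave 1.02, 0.92, 0.94 and 0.19 (adjusted p = 0.0546). ATP8A1, a phospholipid flippase, gave 0.78, 0.22, 0.63 and 1.11 (1.61-fold higher, adjusted p = 0.027). ALDH4A1, a mitochondrial enzyme of proline breakdown, was called with both probes (means 0.54 and 0.56). The chromatin remodeller CHD3 (mean 0.53), SELENBP1 (0.48), the gene listed as UNG2 (0.45), the integrin subunit ITGB4 (0.43) and the transcription factor CREB3L4 (0.42) rose by less than 1.5-fold. So did OMA1, a mitochondrial protease (0.41), and SEL1L, of the degradation machinery of the endoplasmic reticulum (0.37), which were named to complete the calls. With dye-swap arrays only, ALDH4A1 stood at 0.25, CHD3 at 0.22 and ITGB4 at 0.17, and each lost its call. ATP8A1 (0.82), SELENBP1 (0.57), CREB3L4 (0.52), SEL1L (0.50), UNG2 (0.49) and OMA1 (0.44) stood no lower than before, but lost it too. Of 17 genes of cell death and stress 6 were measured, and CLU and IER3 were the 2 called by the brightest probe. Of all probes 0.343% were called higher, and of the 253 named genes 12. Without replicate 2, 1 of the 6 was called, and without the mouse of replicates 1 and 2, 0 were. CSE1L, a nuclear export receptor of that list, gave -0.04, -0.11, -0.27 and -0.51. STC1, a secreted glycoprotein, had 0.50, 1.70, 0.31 and 0.86 and was not called (adjusted p = 0.0929).

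Unnamed probes moved as far as many named ones. The smallest adjusted p of all, 1.48e-06, belonged to an unnamed probe with ratios of -1.17, -0.94, -1.05 and -1.09. The unnamed call with the highest mean had ratios of 0.56, 1.71, 0.52 and 0.55, with replicate 2 alone far above. Neither was given a gene name in the sources used here.

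**Figure D3:**
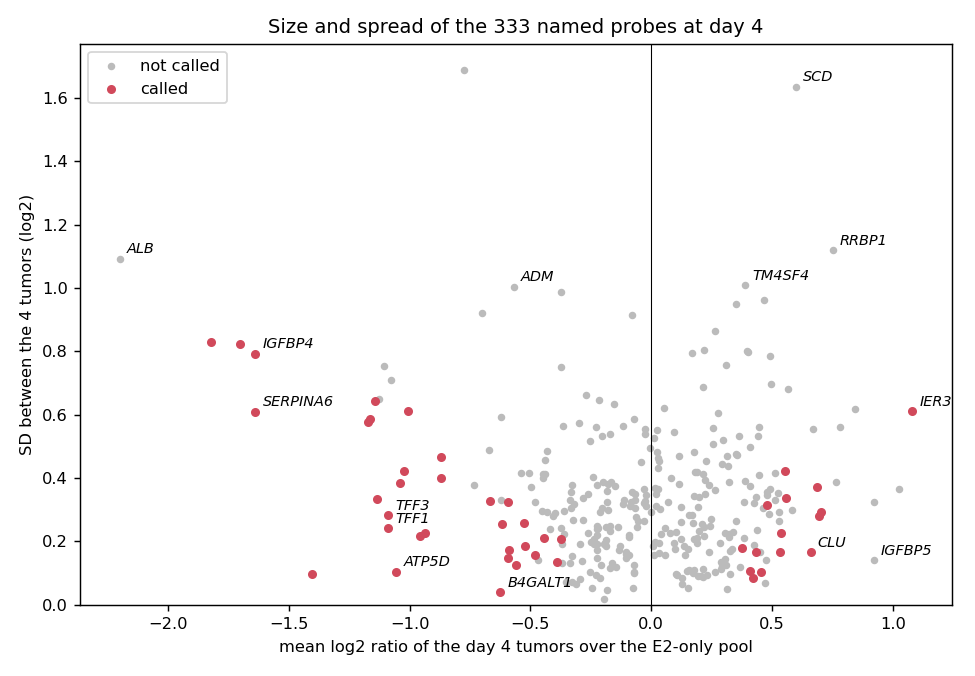
Mean log2 ratio of the day 4 tumors (x axis) and SD between the 4 tumors (y axis) for the 333 named probes, called ones in red. Called falls reached -1.82 (SERPINA6), and SCD (SD 1.64) and ALB (SD 1.09) had a large spread and no call.

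The spread between the day 4 tumors was itself uneven. By the brightest probe of each gene the largest SD was that of SCD (1.64), a fatty acid desaturase, with ratios of 0.13, 3.01, -0.17 and -0.59. In replicate 2 it stood at 4.67 on the forward and 1.35 on the dye-swap array. RRBP1, a ribosome-binding protein of the endoplasmic reticulum, gave 0.41, 2.37, 0.43 and -0.21, and TM4SF4, a tetraspan membrane protein, gave -0.03, 1.88, -0.37 and 0.08. The amino acid transporter SLC1A4 gave -0.04, 1.11, 0.32 and -0.28. All 4 genes were high in replicate 2 alone, although replicate 1 came from the same mouse. They were also higher on its forward than on its dye-swap array. With the dye effect of each probe subtracted, the day 4 means were 0.40 for SCD, 0.51 for RRBP1, 0.39 for TM4SF4 and 0.16 for SLC1A4, against 0.60, 0.75, 0.39 and 0.27 without the subtraction.

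By the study's sets, calls were confined to 3 of 6 in this fit. Set 2 (25 probes) had 14 lower and a median of -0.45, set 5 (60 probes) had 18 lower and a median of -0.43, and set 6 (159 probes) had 15 higher and a median of 0.29. Of all probes, 0.686% were called lower and 0.343% higher. Every probe of sets 2 and 5 had a mean below 0, and 139 of 159 in set 6 lay above it. Without replicate 2 the calls were 4, 5 and 2. Sets 1, 3 and 4 had 0 calls. Since the sets were drawn from these arrays, their directions describe the data and test nothing.

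**Figure D4:**
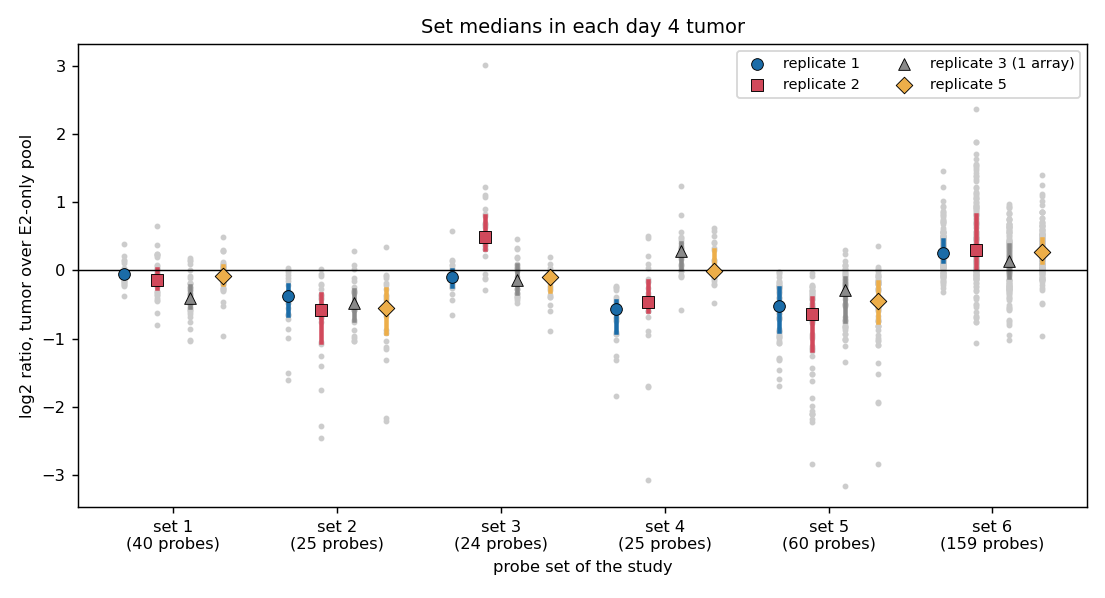
Log2 ratio of the probes of each set (grey points) in the 4 day 4 tumors, with the median (symbol) and quartiles (bar) per tumor. Set 3 had a median of 0.49 in replicate 2 and between -0.13 and -0.09 in the others, and set 4 lay at -0.56 and -0.47 in replicates 1 and 2 and at 0.29 and -0.00 in replicates 3 and 5.

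In set 4 replicates 1 and 2, which share a mouse, had lower medians than replicates 3 and 5. The medians were -0.56, -0.47, 0.29 and -0.00 in replicates 1, 2, 3 and 5. The part of the mouse in this split was not tested. ADM, the vasodilator adrenomedullin and a known target of hypoxia-inducible factor, gave -1.84, -0.89, 0.40 and 0.05. The carbonic anhydrase CA12 gave -0.69, -0.60, -0.09 and -0.21, the ubiquitin ligase SIAH2 gave -0.52, -0.59, -0.07 and -0.12, and WFDC2, a secreted protein of epithelia, gave -0.49, -0.68, -0.01 and -0.15. In each of these genes both tumors of that mouse lay below the other 2. Of 25 genes of hypoxia and glycolysis, 8 were measured and 0 called, with list medians of -0.69, -0.10, 0.24 and 0.23. PPP1R3C, a glycogen-targeting subunit, gave -0.72, -0.08, -0.30 and -0.54. The signalling genes of set 4 were small and mixed: IGF1R, the IGF receptor, gave -0.46, 0.04, 0.33 and -0.00, and its adaptor IRS1 gave -0.29, -0.26, 0.31 and -0.02. IGFBP4 was the only call among 5 measured of 15 genes of IGF signalling, which also held IGFBP7 (0.57, -0.04, 0.18 and 0.14). The hypoxia and IGF counts stand beside 0.686% of all probes and 24 of 253 named genes called lower. Tumor and mouse cannot be told apart for replicates 3 and 5.

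Proliferation genes were close to the pool at day 4. Of 45 mitosis genes, 17 were measured, 15 had a mean below 0, and the median was -0.17. It was -0.12 with the dye effect of each probe subtracted and -0.07 without replicate 3. With dye-swap arrays only, AURKA, BUB1B, CCNA2, CDC25B, CENPF, CKS2, DLG7, STMN1, UBE2C and ZWINT stood above 0. In that setting NEK2, KIF23, CDKN3, TACC3 and PRC1 stood below 0. Of the 17, 0 were called, beside 0.686% of all probes and 24 of 253 named genes called lower. NEK2, a centrosomal kinase, was the nearest to a call, with -0.23, -0.36, -0.37 and -0.29 (1.24-fold lower, adjusted p = 0.0593). AURKA, the mitotic kinase Aurora A, gave -0.17, -0.31, -0.24 and -0.11, and the S and G2 phase cyclin CCNA2 gave -0.05, -0.20, -0.48 and 0.05. KIF23, a kinesin of the spindle midzone, gave -0.06, -0.21, -0.86 and -0.19, with replicate 3 the lowest. The median of the list was -0.37 in that tumor, against -0.06, -0.11 and -0.14 in replicates 1, 2 and 5. Replicate 3 had a forward array only, so tumor and dye orientation cannot be told apart in this gap. MKI67, the Ki-67 antigen, was high in replicate 2 (0.69) and at -0.06, -0.38 and -0.14 in the others. Of 40 genes of DNA replication and nucleotide supply, 9 were measured, and MCM6 was the only call, lower. RRM2, a subunit of ribonucleotide reductase, was slightly above the pool in every tumor (0.04, 0.24, 0.14 and 0.08) and was not called (adjusted p = 0.396).

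The lists of other kinds held few measured genes and few calls. They are read beside 0.686% of all probes lower and 0.343% higher, and 24 and 12 of the 253 named genes. Of 27 lipid and sterol genes, 7 were measured, and ELOVL5 was the only call, while ME1, the malic enzyme, held between -0.21 and -0.18. Of 20 immediate early genes, 6 were measured, with EGR3 lower and IER3 higher. Of 15 genes of ERBB and RET-type signalling, 6 were measured and ERBB2 was the call, while FGF18, a fibroblast growth factor, gave 0.18, 0.86, 0.17 and 0.69 (adjusted p = 0.0644). The 3 mitochondrially encoded subunits had medians of -0.04, 0.22, -0.73 and 0.45, with no call. Of 16 markers of luminal breast epithelium, 6 were measured, with means between -0.43 and 0.48 and 0 calls; SPINT1 gave 0.24, 0.33, 0.34 and 0.34 and PRSS8 gave 0.36, 0.24, 0.68 and 0.43. ESR1, GATA3, FOXA1 and the keratins of that list have no named probe, so the labelled cell type could not be checked by them. Of 18 fibroblast and matrix genes, 3 were measured, with means between -0.29 and 0.08; MGP, a matrix protein, gave -0.46, -0.33, -0.19 and -0.16. None of 10 endothelial or 12 leukocyte markers had a named probe, and they may lie among the unnamed probes. The 6 measured of 11 secretory and ciliated genes had a median of 0.06 and 1 call by the brightest probe, the tubulin TUBA8, lower. FOXJ1 of that list was called higher with its dimmer probe.

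Day 4 was then set against the other days to ask whether its ratios differed from theirs. Against days 1, 2 and 7, 0 of 9912 probes were called (0%), with 949, 691 and 524 at an unadjusted p under 0.05. The nearest to a call were RRM2 in the difference of day 4 minus day 1 (0.65, adjusted p = 0.0589), and NEK2 and DLG7, a spindle protein, in that of day 4 minus day 2 (0.80 and 0.97, adjusted p = 0.0682 for each). Without day 2 replicate 2 the difference of day 4 minus day 2 had 26 probes lower and 32 higher, against a single remaining tumor of that day. In order of day, from 1 to 14, the medians of the mitosis list were -0.36, -0.70, -0.17 (day 4), -0.24 and -0.68. These medians share the pool and were not tested.

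Against day 14, 35 probes were called (0.353%), 20 lower at day 4 (0.202%) and 15 higher (0.151%), of which 10 and 11 were named. By the brightest probe, 9 of the 253 named genes were lower and 9 higher. Day 14 has 2 tumors from 2 mice, and the pool holds no tumor of that day, so treatment and time cannot be told apart there. Of the 6 measured secretory and ciliated genes, 4 were lower at day 4 than at day 14 (PSCA, PIP, FOXJ1 and CAPS), as were 2 of 6 luminal markers (MUC1 and CD24). PSCA, a surface antigen, was at 0.24 ± 0.25 at day 4 (SD, n = 4) and 3.40 ± 0.40 at day 14 (SD, n = 2), a difference of -3.16 (SE 0.23, adjusted p = 7.68e-07). The secreted protein PIP differed by -2.12 (SE 0.28, adjusted p = 0.00127), with day 4 ratios of 0.13, -0.66, -0.01 and 0.53. FOXJ1 differed by -1.62 (adjusted p = 0.0402), CAPS, a calcium-binding protein, by -1.46 (adjusted p = 0.000604) and the gene listed as UNG2 by -1.11 (adjusted p = 0.00243).

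Of the 9 measured genes of DNA replication and nucleotide supply, 4 were higher at day 4 than at day 14 (RRM2, TK1, TYMS and KIAA0101), and 0 were lower. Of the 253 named genes, 9 were higher at day 4 than at day 14. RRM2 averaged 0.13 ± 0.09 at day 4 and -0.81 ± 0.09 at day 14 (difference 0.94, SE 0.12, adjusted p = 0.00127). PRC1, a regulator of cytokinesis, differed by 0.98 (adjusted p = 0.0109) and MYBL2, a transcription factor of S phase, by 1.33 (adjusted p = 0.0412). GFRA1 averaged -0.73 ± 0.38 at day 4 and -2.54 ± 0.27 at day 14 (difference 1.81, adjusted p = 0.0412), and the scaffold MPP2 differed by 0.93 (adjusted p = 0.0338). Without day 14 replicate 2, 1 probe was lower and 0 were higher in this comparison, and without day 14 replicate 1, 10 were lower and 8 higher. Without day 4 replicate 2, 11 were lower and 5 higher.

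**Figure D5:**
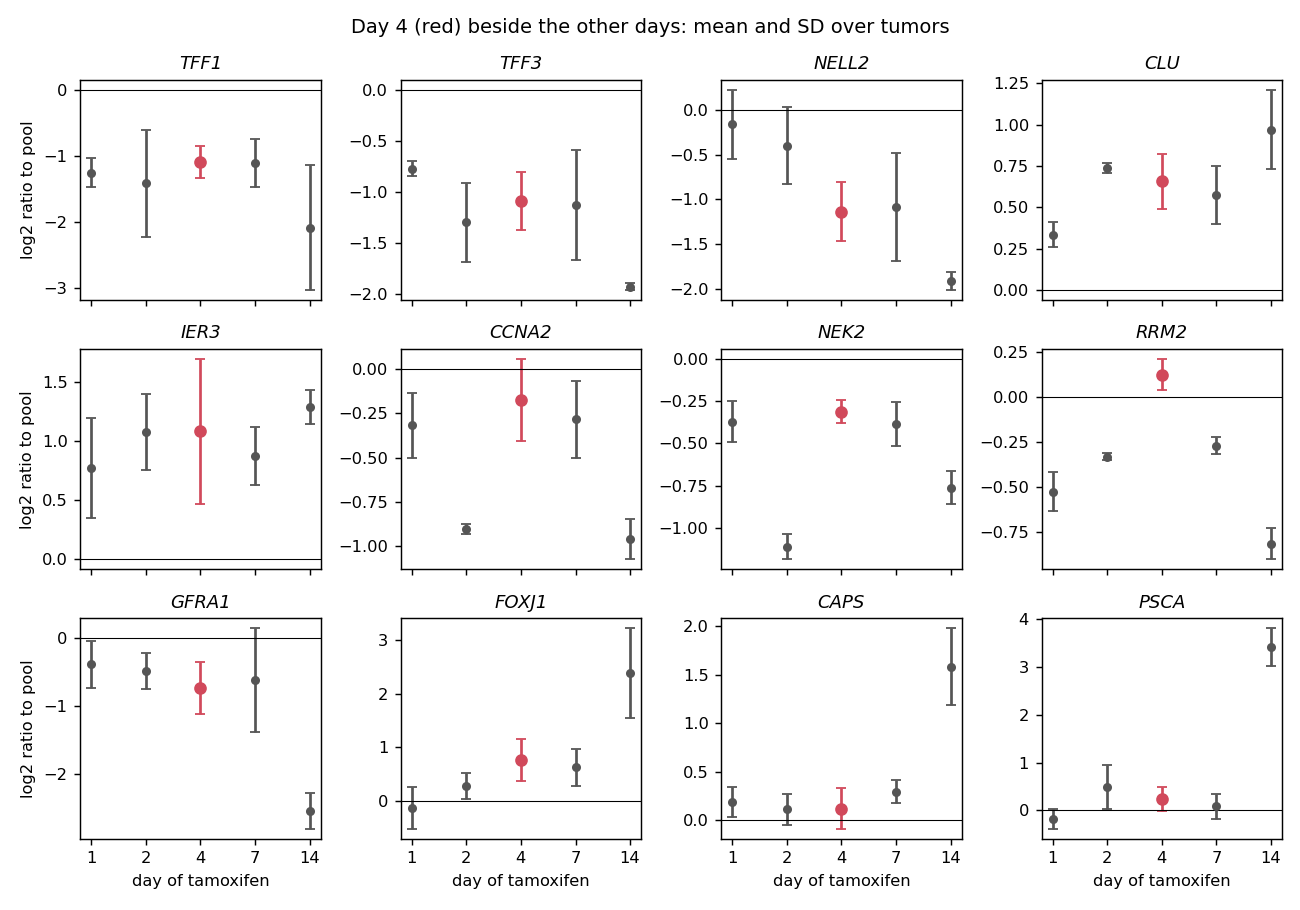
Mean log2 ratio over the E2-only pool (y axis) with the SD between tumors (bars) by day of treatment (x axis, days 1 to 14, with 4, 2, 4, 4 and 2 tumors in order of day) for 12 genes, with day 4 in red. RRM2 lay above the pool only at day 4 (0.13), and PSCA stood at 0.24 at day 4 and 3.40 at day 14.

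The lower genes TFF1 and B4GALT1 had similar ratios at day 4 and at the days around it. TFF1 (brightest probe) averaged -1.25, -1.42, -1.09, -1.11 and -2.08 in order of day, the third value being day 4. NELL2 averaged -0.16, -0.40, -1.14, -1.09 and -1.91, with the first 2 days nearer to 0. B4GALT1 averaged -0.91, -0.79, -0.62, -0.65 and -0.55. For these 3 genes no difference between day 4 and another day passed the test, and a missed threshold does not show equal levels.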

How the data were processed

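RNA of tamoxifen-treated xenografts and the E2-only pool was hybridized to 2-colour Sanger Hver 1.3.1 cDNA arrays. The intensity values deposited by the authors are the brightness of each spot and of its surroundings in both channels, as scanned. Their value table holds log2 ratios that the authors made with limma (version not given in the sources used here) by background correction, loess and quantile normalization, and served as an alternative. The scale and direction of the table were read from its match to the scanner values, and its centring is unknown. Spots marked 0 in the files were left out, and background was corrected by normexp (offset 50), before loess on each array and quantile normalization of all arrays. Forward arrays gave log2 of channel 2 over channel 1, dye swaps had the sign turned, and both were averaged per tumor. The software was R (4.3.3), limma (3.58.1) and statmod (1.5.0). The fit used lmFit with 1 mean per day over 31 arrays and 16 tumors, duplicateCorrelation over the mouse, eBayes and Benjamini-Hochberg adjustment over 9912 probes. All adjusted p values are from it. The fit was also run on simulated data with independent noise for each tumor. These held no effect of the mouse, the dye or the pool, so they cannot show how the fit handles those.

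Gene names came from the list of probes that the study selected on these arrays. The brightest probe stands for a gene, and 217 symbols matched RefSeq (GRCh38.p14) as current names and 34 as older ones. The gene listed as UNG2 is given no position, since its identity was not settled. Named are the 10 largest called falls and rises, up to 3 members of each list or set by adjusted p, the 5 with the largest SD, called genes of the contrasts between days and those the paper names: 90 genes, of which 67 are given a day 4 value, with 8 more calls. The members and lists were chosen with earlier results of these data known. Signal over background had a median of 2.77 to 7.92 per array, and the number of arrays limits the precision. P-values measure the spread between the 16 tumors of all days, which came from 12 mice. Day 1 had 4 tumors from 2 mice, and days 4 and 7 each had 4 tumors from 3 mice. Replicate numbers did not pair tumors across days. Alternatives covered background, normalization, spot marks, the mouse, orientation, the doubtful array, array weights, the value table and leaving out each tumor.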

Additional observations from a re-analysis of the deposited data

Results flagged for a closer look

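Of 81 groups of 4 day 4 tumors examined for a tumor far from the others, 6 stood out, and chance gives about 1 in 20 groups. FOXJ1 had 0.19 in replicate 5, below the other 3. IER3 had 0.17 in replicate 3, below the other 3. SLC1A1 had -1.62 in replicate 2, below the other 3. SPINT1 had 0.24 in replicate 1, just below 3 tumors between 0.33 and 0.34. DLG7 had 0.08 in replicate 2, while the others lay between -0.13 and -0.11. The median of set 3 was 0.49 in replicate 2, against -0.09, -0.13 and -0.10 in replicates 1, 3 and 5. Replicate 2 was the tumor apart in 3 of these 6.

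Of the 253 named genes, 9 were lower and 9 higher at day 4 than at day 14 by the test of the difference itself, and 10 of these fall under the naming rule. The differences of day 4 minus day 14 were -3.16 for PSCA, -2.12 for PIP, -1.62 for FOXJ1, -1.46 for CAPS, -1.11 for UNG2, 0.93 for MPP2, 0.94 for RRM2, 0.98 for PRC1, 1.33 for MYBL2 and 1.81 for GFRA1.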

How the results depend on the processing

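All 28 called genes under the naming rule kept their direction in all 36 settings run. Their 4 tumors all lay on one side of 0, so leaving tumors out or averaging them by mouse could not reverse it. Leaving out probes of low signal kept all 9912, and so repeated the main fit. Of the 28, 1 (ATP5D) kept its call in every setting other than the doubtful array as labelled. With dye-swap arrays only, 24 of the 28 lost their call. The calls at day 4, given as lower and higher, were 68 and 34. The higher count was 69 with no background correction, 61 with plain subtraction, and 58 both with no normalization between arrays and with Aquantile. Counts were 44 lower with all spots kept, 22 and 3 with 1 mean per mouse, 442 and 486 with forward arrays only, 18 and 5 with dye-swap arrays only, 35 and 20 with array weights, and 0 and 0 with the doubtful array as labelled. With day 4 tumors only, fitted without the mouse block because its correlation could not be estimated, they were 15 and 3. Chosen after seeing the data were the authors' value table with the doubtful column (45 lower), the probe's dye effect subtracted (44 and 15), the doubtful array as a second scan, and leaving out tumors of other days. Leaving out single tumors or the mouse of replicates 1 and 2 gave 13 to 86 lower and 1 to 51 higher.

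The contrasts moved too. For day 4 minus day 1, 1 probe was higher with no background correction, plain subtraction, no normalization between arrays, Aquantile or the dye effect subtracted. For day 4 minus day 2, 1 was higher with no background correction or forward arrays only, and 2 with the dye effect subtracted; single tumors left out gave up to 26 lower and 32 higher, and for day 4 minus day 7 up to 1 higher. For day 4 minus day 14, lower and higher calls (20 and 15) were 33 and 25 with plain subtraction, 12 and 4 with no normalization between arrays, Aquantile or forward arrays only, 11 and 5 with 1 mean per mouse, 4 and 1 with dye-swap arrays only, 62 and 48 with array weights, and 62 and 46 with the authors' table. With its doubtful column 42 were lower, and with median centring 1 was higher. Without single tumors they were 1 to 23 lower and 0 to 16 higher. With the replicate number as a block they were 11 and 8, but the numbers do not pair tumors across days (correlations of deviations between -0.17 and 0.18). Against the pool the same block, chosen after seeing the data, gave 87 lower and 85 higher. The cause of these changes was not tested.

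Of 62 uncalled genes under the rule, 33 changed sign in some setting. Among those printed, dye-swap arrays only gave 0.0018 for AURKA, 0.14 for CCNA2, -0.10 for CLDN4, 0.10 for DLG7, -0.19 for RRBP1, -0.04 for SCD and -0.29 for SLC1A4. Forward arrays only gave 0.01 for IGF1R, 0.05 for IRS1 and -0.02 for MKI67. With 1 mean per mouse IGF1R was 0.04, IRS1 0.0049 and MKI67 -0.07. MKI67 was -0.06 with median centring, -0.03 with array weights, -0.04 with the authors' table and -0.08 with its doubtful column, where DLG7 was 0.01 and 0.0038. The doubtful array as labelled gave -0.03 for SCD and -0.05 for SLC1A4. Without single day 4 tumors IGF1R lay between -0.15 and 0.12, IRS1 between -0.19 and 0.01, MKI67 between -0.20 and 0.17, SCD between -0.21 and 0.99, SLC1A4 between -0.0031 and 0.46 and TM4SF4 between -0.11 and 0.65. Without the mouse of replicates 1 and 2, ADM was 0.22, IGF1R 0.16, IRS1 0.15, MKI67 -0.26, SCD -0.38 and TM4SF4 -0.15. Depth is limited by 1 to 2 arrays per tumor and 1 pool.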
